A study of Homo sapiens with 8 samples.

Results

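The lysosomal genes described here are 37 named genes that encode lysosomal hydrolases, lysosomal membrane proteins, the proton pump and the transcription factors TFEB and TFE3, taken by symbol from a table of 38148 genes. By role they are 9 glycosidases, 5 sulfatases, 8 proteases, 5 luminal proteins that handle lipids, 6 membrane proteins, 2 subunits of the V-ATPase and the 2 transcription factors. All 37 were found once in the table, and 36 passed a filter of 1 RPM (reads relative to the library total) on the mean over all libraries, which left 14219 genes for testing. They were measured by poly(A) mRNA-seq in HT29, a human colorectal cancer cell line, with 2 libraries in each of 4 groups. Cells were left untreated or received selumetinib, an inhibitor of MEK, the kinase that activates ERK, at 1 μM over 24 h. In all groups glyoxal was the fixative and cells were sorted on staining of cyclin B1 (CCNB1), which accumulates in G2, so that each treatment has a CCNB1-negative and a CCNB1-positive fraction. Each group is a bulk sample of 1 sorted line, and a change in RNA per cell cannot be told apart from a change in the mix of cells within a fraction.

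Lysosomes are acidic organelles in which hydrolases break down proteins, glycans, lipids and nucleic acids. Most of the soluble hydrolases receive a mannose 6-phosphate tag in the Golgi and are carried to the lysosome by receptors, while the V-ATPase pumps protons across the membrane to keep the lumen acidic. TFEB and TFE3 are basic helix-loop-helix leucine zipper factors of the MiT/TFE family that bind the E-box CACGTG. In lysosomal promoters a longer form of it, TCACGTGA, is known as the core of the CLEAR motif. Phosphorylation by mTORC1 at the lysosomal surface holds both factors in the cytoplasm, and ERK is also known to phosphorylate TFEB. Transcript levels, as measured here, say nothing of where these proteins were in the cell.

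Promoter sequences are shown because they hold the motif that TFEB and TFE3 bind, in members that behaved differently under selumetinib. RefSeq promoter windows on GRCh38.p14, from 250 bases before to 50 after the gene start, were found for 28 of the 37 members. HEXA, NAGLU, SGSH, ARSA, CTSB, ASAH1, PSAP, LAMP2 and ATP6V1H had none. CACGTG, which reads the same on both strands, stood in 9 of the 28 windows (32.1%), compared with 7.27% of all 27305 RefSeq windows and 9.94% of the windows of tested genes. TCACGTG or its reverse complement, which contains the E-box, was in the same number of members' windows and in 3.76% of all windows. TCACGTGA, the longer palindrome, was in 6 of the 28 (21.4%), compared with 1.01% of all windows and 1.89% of those of tested genes. The 6 are LAMP1 (chr13:113296989-113297248, plus strand), GAA (chr17:80101331-80101590, plus strand), GALNS (chr16:88856938-88857137, minus strand), CTSA (chr20:45891245-45891344, plus strand), MCOLN1 (chr19:7522534-7522633, plus strand) and ATP6V0D1 (chr16:67481148-67481247, minus strand). Each is written 5′ to 3′ on the strand of its gene and ends 10 bases after the start, with every CACGTG in capitals.
LAMP1: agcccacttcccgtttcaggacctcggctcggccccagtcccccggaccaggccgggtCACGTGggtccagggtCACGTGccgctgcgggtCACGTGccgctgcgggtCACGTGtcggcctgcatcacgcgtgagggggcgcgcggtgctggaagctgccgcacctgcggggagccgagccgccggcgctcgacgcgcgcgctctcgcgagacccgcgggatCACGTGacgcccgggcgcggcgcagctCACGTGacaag
GAA: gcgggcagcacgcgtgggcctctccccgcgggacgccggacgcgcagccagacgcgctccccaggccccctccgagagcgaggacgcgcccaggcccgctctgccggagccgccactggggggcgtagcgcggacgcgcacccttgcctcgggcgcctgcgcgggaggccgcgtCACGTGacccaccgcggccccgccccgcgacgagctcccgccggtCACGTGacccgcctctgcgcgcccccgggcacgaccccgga
GALNS: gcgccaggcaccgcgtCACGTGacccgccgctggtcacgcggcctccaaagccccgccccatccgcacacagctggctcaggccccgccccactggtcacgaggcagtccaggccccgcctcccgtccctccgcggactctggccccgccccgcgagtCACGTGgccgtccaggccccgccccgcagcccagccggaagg
CTSA: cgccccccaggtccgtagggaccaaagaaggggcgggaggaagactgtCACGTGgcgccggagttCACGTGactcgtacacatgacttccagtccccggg
MCOLN1: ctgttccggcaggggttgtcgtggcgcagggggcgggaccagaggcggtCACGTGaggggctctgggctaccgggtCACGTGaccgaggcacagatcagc
ATP6V0D1: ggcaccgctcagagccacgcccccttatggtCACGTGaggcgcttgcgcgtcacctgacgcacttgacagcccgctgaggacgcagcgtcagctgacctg

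The LAMP1 window held 6 E-boxes, of which the 2 nearest the start had the CLEAR core TCACGTGA. GAA and MCOLN1 held 2 such cores each. NEU1, CTSD and CTSF held E-boxes without both flanking bases, at -126 for NEU1, at -47 for CTSD and at -123 and -51 for CTSF, counted from the gene start to the first base of the motif. IDUA (chr4:986794-987053, plus strand) and GLA (chrX:101407916-101408175, minus strand) are shown beside them because they were the members with the largest rise and the largest fall in CCNB1-negative cells, and these letters hold no CACGTG.
IDUA: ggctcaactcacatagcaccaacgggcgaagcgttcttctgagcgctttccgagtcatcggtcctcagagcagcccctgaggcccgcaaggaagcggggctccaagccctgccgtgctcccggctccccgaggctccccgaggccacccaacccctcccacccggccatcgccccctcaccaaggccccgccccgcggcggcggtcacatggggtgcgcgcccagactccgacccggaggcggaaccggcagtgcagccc
GLA: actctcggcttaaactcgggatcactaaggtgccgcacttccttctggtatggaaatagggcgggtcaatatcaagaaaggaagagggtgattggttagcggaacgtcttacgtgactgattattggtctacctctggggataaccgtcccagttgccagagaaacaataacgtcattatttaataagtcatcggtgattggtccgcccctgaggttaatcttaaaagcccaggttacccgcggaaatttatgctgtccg

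**Figure D1:**
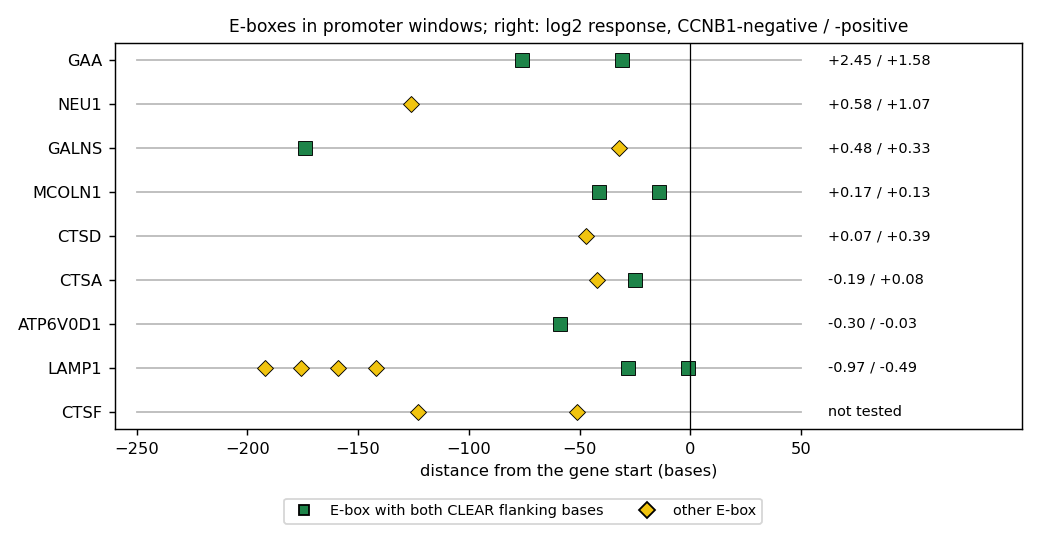
Position of each CACGTG E-box in the promoter windows of the 9 members that hold one (x axis: bases from the gene start; squares: E-boxes with both CLEAR flanking bases; diamonds: other E-boxes), with the log2 fold change under selumetinib in CCNB1-negative and CCNB1-positive cells printed at the right. Members are ordered by their response in CCNB1-negative cells, from GAA at 2.45 to LAMP1 at -0.97, with CTSF, which was not tested, last. Only members with an E-box are drawn, so the order says nothing of members without one.

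Reads on genes numbered between 12696860 and 23916160 per library, and values are given as normalised reads, that is, reads scaled to the largest library. For all 8 libraries the title and the short description disagree on treatment and on fraction, and groups follow the descriptions, which are also the column names of the table. CCNB1 had 2988 and 3271 reads in the untreated CCNB1-negative libraries and 14140 and 15521 in the untreated CCNB1-positive ones, and treated libraries had 154 and 88 reads in the CCNB1-negative and 6167 and 3764 in the CCNB1-positive fraction, so CCNB1 was higher in the fraction that the descriptions call positive. Under the titles, the responses of the 2 fractions would trade places with their signs changed, and so would the differences between fractions, while the difference of the responses would stay as given. Of 10 genes of G2 and mitosis, 10 were called lower with selumetinib in CCNB1-negative cells and 9 in the CCNB1-positive fraction, with median log2 fold changes of -3.34 and -0.77. Of 12 genes that report ERK output, 11 were called lower and 1 higher in each fraction. All 9 epithelial markers had reads in every library, their summed normalised reads ranging from 257866 to 287448 in untreated and from 116648 to 206017 in treated libraries, while 5 fibroblast markers summed to between 13 and 114 reads, the highest in a treated library. Of 5 leucocyte markers LYZ, which is not particular to leucocytes, held nearly all reads, and PTPRC had 0 to 11. Treated libraries also differed in composition: mitochondrial transcripts took 11.9 to 14.8% of their reads on genes against 4.44 to 7.80% in untreated libraries, and MALAT1 took 2.01 to 4.42% against 0.303 to 0.386%. The part of these shares in the results below was not tested beyond a scaling that leaves them out.

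In untreated CCNB1-negative cells the 36 tested members spanned a wide range of transcript levels, here given as normalised reads per kb of transcript. CD63, a tetraspanin of the lysosomal membrane, was the most abundant at 16549, followed by the proteases CTSD at 4748 and CTSZ at 3568, the saposin precursor PSAP at 3290 and the carboxypeptidase CTSA at 2724. At the other end stood ARSB at 27.7, ARSA at 26.3, GAA at 22.6 and SMPD1 at 12.7. TFE3, at 237 normalised reads per kb, was above TFEB at 95.6. The order of the extremes was similar in untreated CCNB1-positive cells, with CD63 at 15196 and SMPD1 at 7.33. CTSF, a cysteine protease, was not tested: it had 0 reads in 6 libraries and 1 read in each treated CCNB1-negative library, and a count of 0 allows up to 3 reads, so no difference was detectable at this depth. Together the members took between 0.295 and 0.419% of the reads on genes, the lowest share in treated CCNB1-negative replicate 2 and the highest in treated CCNB1-positive replicate 1.

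**Figure D2:**
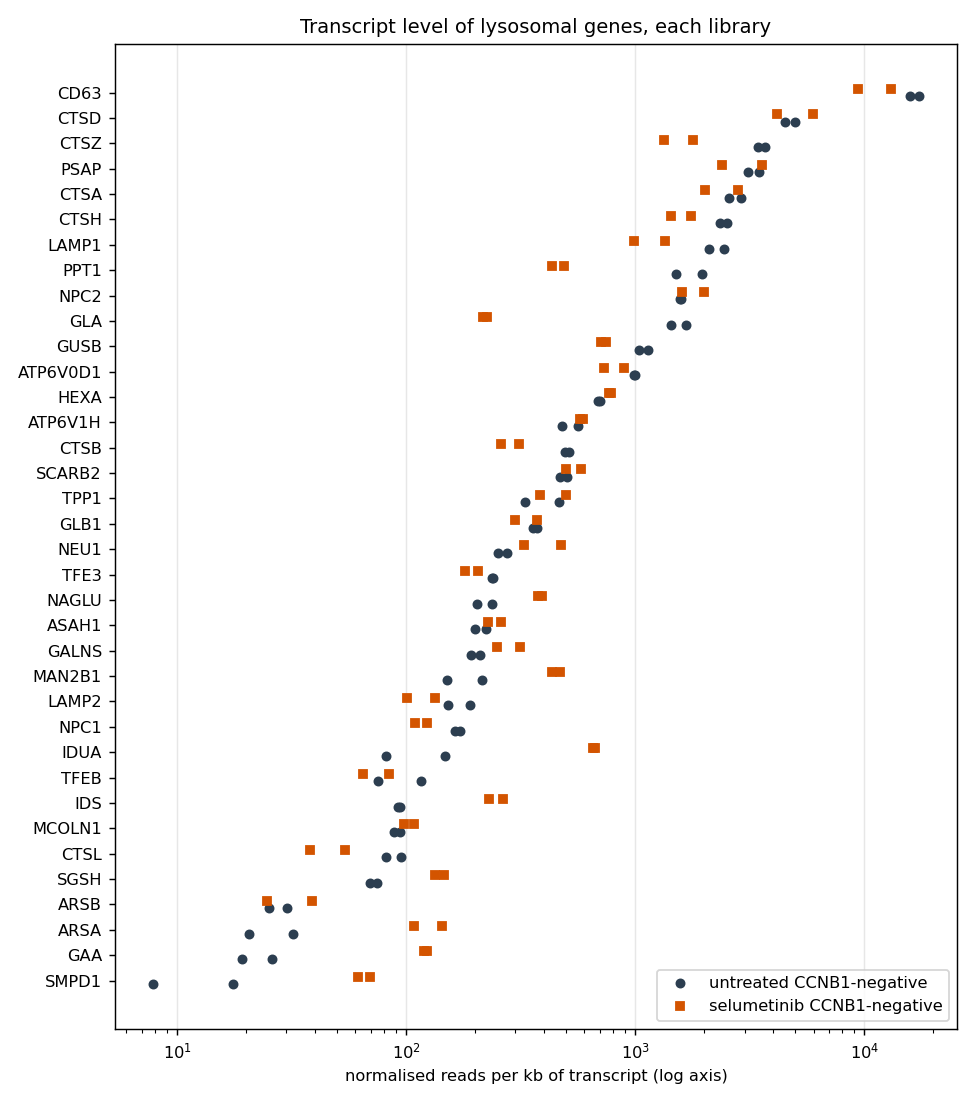
Transcript level of the 36 tested members in the 2 CCNB1-negative groups (x axis: normalised reads per kb of transcript, log axis; each point is 1 library, circles untreated and squares selumetinib-treated). Treated libraries of IDUA, IDS, MAN2B1, SGSH, ARSA, GAA and SMPD1 lie to the right of the untreated ones, and those of CTSZ, LAMP1, PPT1 and GLA lie to the left.

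The first comparison asked how selumetinib changed the lysosomal genes in CCNB1-negative cells. The members moved both ways: 10 of 36 rose, 11 fell and 15 were not called at an adjusted p of 0.05 in limma. Of the sulfatases 4 of 5 rose, as did 5 of 9 glycosidases, while proteases and membrane proteins fell or were not called. These shares, 27.8% higher and 30.6% lower, compare with 38.2% of all tested genes called higher and 35.8% called lower, so the members were not called more often than other genes. Their median log2 fold change was 0.11, against 0.05 over all tested genes.

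Among the glycosidases 5 of 9 rose and 2 fell. IDUA (ENSG00000127415, chr4:986997-1004564), which removes iduronic acid from heparan and dermatan sulfate, had 320 and 178 normalised reads in the untreated CCNB1-negative libraries and 1453 and 1421 in the treated ones. The groups were far apart, although untreated replicate 1, which also had the higher mitochondrial share (7.80% against 4.44%), lay above replicate 2, as it did for TFEB, SMPD1, ARSA and MAN2B1. The part of that share was not tested. Its log2 fold change was 2.59 ± 0.27 (SE, 2 libraries per group), about 6.03-fold, with an adjusted p of 1.24e-06. GAA, the acid glucosidase that degrades glycogen, went from 97.5 and 71.8 to 463 and 451 normalised reads, a log2 fold change of 2.45 ± 0.23 (adjusted p = 4.52e-07). MAN2B1, the lysosomal mannosidase, went from 685 and 479 to 1488 and 1373, or 1.32 ± 0.19 on the log2 scale (adjusted p = 2.13e-05). None of these groups overlapped. Overlap is given here and below as a description of the 2 libraries per group. The share of all tested genes without overlap was not computed, so a lack of overlap adds no support to a call. NAGLU, which acts on heparan sulfate, rose by 0.81 and NEU1, the lysosomal sialidase, by 0.58 on the log2 scale.

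GLA (ENSG00000102393, chrX:101397803-101408012) was the member that fell most in these cells. It encodes the galactosidase that clears globotriaosylceramide, and it had 1888 and 2190 normalised reads in untreated CCNB1-negative libraries but 284 and 297 in treated ones, a log2 fold change of -2.81 ± 0.15 (adjusted p = 5.09e-09). GUSB, the glucuronidase often used as a reference gene, fell by 0.58 on the log2 scale. GLB1 and HEXA, the genes of the lysosomal galactosidase of ganglioside breakdown and of the hexosaminidase alpha subunit, had log2 fold changes of -0.13 and 0.16 and were not called.

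Of the 5 sulfatases 4 rose and none fell. ARSA, which desulfates the myelin lipid sulfatide, had 138 and 88.2 normalised reads in untreated and 617 and 465 in treated CCNB1-negative libraries, a log2 fold change of 2.28 ± 0.25 (adjusted p = 2.09e-06). IDS, which acts just before IDUA in the breakdown of heparan and dermatan sulfate, went from 711 and 700 to 2015 and 1736, or 1.41 ± 0.15 (adjusted p = 2.01e-06). SGSH, the heparan sulfamidase, went from 202 and 189 to 397 and 363, or 0.96 ± 0.22 (adjusted p = 0.0013). In each of these genes both treated libraries lay above both untreated ones, a pattern whose share over all tested genes was not computed. GALNS, which works on keratan sulfate, rose by 0.48 (adjusted p = 0.021), and ARSB, which works on dermatan and chondroitin sulfate, had a log2 fold change of 0.16 and was not called.

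The proteases went the other way: 4 of 7 tested fell and none rose. CTSZ, a cysteine carboxypeptidase, had 5540 and 5178 normalised reads in untreated and 2687 and 2001 in treated CCNB1-negative libraries, a log2 fold change of -1.21 ± 0.16 (adjusted p = 1.36e-05), with no overlap of the groups. The cysteine proteases CTSL, CTSB and CTSH had log2 fold changes of -0.96, -0.83 and -0.62, all called lower. CTSD, the main aspartic protease, CTSA, which holds NEU1 in a protective complex, and TPP1, a tripeptidyl peptidase, lay at 0.07, -0.19 and 0.17 and were not called.

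The luminal proteins that handle lipids were split. SMPD1, the acid sphingomyelinase, had only 39 and 15 reads in the untreated CCNB1-negative libraries and 107 and 88 in the treated ones, which are 42.3 and 18.9 against 168 and 149 normalised reads. Its log2 fold change of 2.49 ± 0.39 (adjusted p = 5.38e-05) thus has the largest standard error of all members. SMPD1 passed the filter only through its treated libraries. PPT1, a thioesterase that strips palmitate from proteins, had 3455 and 4456 normalised reads in untreated and 1113 and 987 in treated libraries, a log2 fold change of -1.90 ± 0.16 (adjusted p = 1.67e-07). In both genes the treated and untreated libraries did not overlap. PSAP, ASAH1, the acid ceramidase, and NPC2, which hands cholesterol to NPC1, were not called, at -0.17, 0.20 and 0.18.

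Of the 6 membrane proteins 4 fell: LAMP1 by 0.97, CD63 by 0.58, LAMP2 by 0.55 and NPC1, the cholesterol exporter, by 0.53 on the log2 scale. LAMP1 had 6580 and 5649 normalised reads in untreated and 3642 and 2665 in treated CCNB1-negative libraries, and these did not overlap. SCARB2, a carrier of lysosomal glucocerebrosidase, and MCOLN1, a calcium channel, had log2 fold changes of 0.15 and 0.17 and were not called. Neither V-ATPase subunit was called, ATP6V0D1 of the membrane sector at -0.30 and ATP6V1H of the cytosolic sector at 0.16.

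TFEB (ENSG00000112561, chr6:41683978-41736259) and TFE3 (ENSG00000068323, chrX:49028726-49043410) were not called in either response. TFEB had 270 and 176 normalised reads in untreated and 196 and 151 in treated CCNB1-negative libraries, so the groups overlapped, and its log2 fold change was -0.34 with a 95% interval from -0.93 to 0.24 (adjusted p = 0.27). In CCNB1-positive cells it had 266 and 182 normalised reads untreated and 199 and 150 treated, again overlapping, with a log2 fold change of -0.35 (interval from -0.94 to 0.24, adjusted p = 0.27). TFEB was higher in replicate 1 than in replicate 2 of every group. TFE3 had 785 and 778 normalised reads in untreated and 680 and 592 in treated CCNB1-negative libraries, which did not overlap, and its log2 fold change was -0.30 (interval from -0.65 to 0.04, adjusted p = 0.105). In CCNB1-positive cells it had 859 and 794 against 928 and 743, or 0.01 (interval from -0.34 to 0.35). TFEB depended on the scaling: it was called lower in both fractions with quantile normalisation, at -0.84 and -1.03, and with median-ratio scaling, at -0.60 and -0.69, and TFE3 was called lower in CCNB1-negative cells with the latter, at -0.56. The other family members, MITF and TFEC, had 3 to 14 and 1 to 8 reads per library and were not tested.

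**Figure D3:**
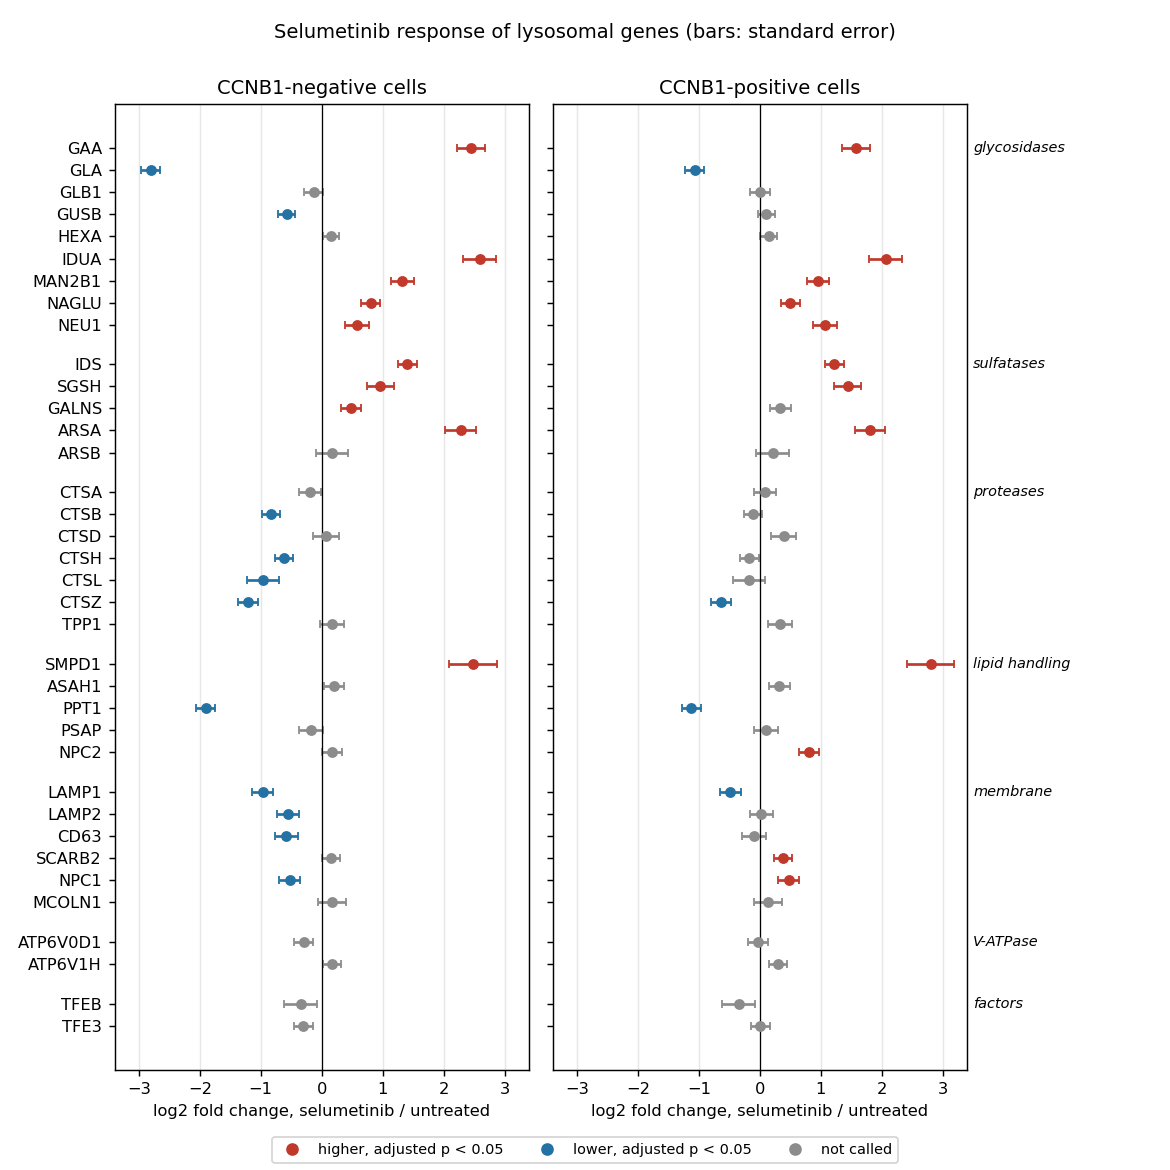
Log2 fold change under selumetinib (x axis) of the 36 tested members, grouped by role (y axis), in CCNB1-negative cells at the left and CCNB1-positive cells at the right. Bars are standard errors from limma, and colours show members called higher, called lower and not called. Sulfatases lie at or above 0 in both panels, CTSZ is the protease that is called in both, and TFEB and TFE3 are not called in either.

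In CCNB1-positive cells 12 of 36 members rose and 4 fell with selumetinib. These shares of 33.3% and 11.1% compare with 38.0% higher and 27.3% lower over all tested genes, and the median log2 fold change was 0.17 both for the members and for all genes. Of the tested members SMPD1 rose most, from 20 and 15.3 normalised reads to 133 and 112, a log2 fold change of 2.80 ± 0.39 (adjusted p = 3.39e-05). Its mean log2 value was 4.13 in untreated CCNB1-positive and 4.82 in untreated CCNB1-negative cells, where the filter asked for a mean of 4.58. It was 6.93 and 7.31 in the treated fractions, so SMPD1 passed the filter only through the treated libraries. IDUA went from 325 and 187 to 1101 and 965 (2.06 ± 0.27, adjusted p = 2.06e-05), ARSA from 139 and 114 to 504 and 384 (1.81 ± 0.25, adjusted p = 3.46e-05) and GAA from 91.0 and 82.2 to 286 and 233 (1.58 ± 0.23, adjusted p = 4.90e-05). In all 4 the groups did not overlap, which, as above, was not set against all tested genes.

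SGSH had 154 and 107 normalised reads in untreated and 391.6 and 312 in treated CCNB1-positive libraries, a log2 fold change of 1.44 ± 0.22 (adjusted p = 7.20e-05). IDS went from 691 and 647 to 1729 and 1403 (1.22 ± 0.15), and NEU1 from 860 and 812 to 2071 and 1484 (1.07 ± 0.19). MAN2B1 went from 653 and 509 to 1156 and 1079 (0.95 ± 0.19). None of these overlapped, and NAGLU, at 0.50, completes the 9 members that were called higher in both fractions: GAA, IDUA, MAN2B1, NAGLU, NEU1, IDS, SGSH, ARSA and SMPD1. NPC2, SCARB2 and NPC1 were also called higher, at 0.80, 0.38 and 0.47.

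The 4 members called lower in CCNB1-positive cells, GLA, PPT1, CTSZ and LAMP1, were called lower in CCNB1-negative cells too. PPT1 had 3374 and 3963 normalised reads untreated and 1726 and 1630 treated, a log2 fold change of -1.12 ± 0.16 (adjusted p = 4.06e-05). GLA went from 1758 and 2094 to 949 and 882 (-1.07 ± 0.15, adjusted p = 4.32e-05). CTSZ went from 5544 and 5187 to 3663 and 3224 (-0.64 ± 0.16) and LAMP1 from 6180 and 5845 to 4740 and 3887 (-0.49 ± 0.18). In each, both treated libraries were below both untreated ones. In neither fraction were 13 members called: GLB1, HEXA, ARSB, CTSA, CTSD, TPP1, ASAH1, PSAP, MCOLN1, ATP6V0D1, ATP6V1H, TFEB and TFE3. The shares of all tested genes called lower in both fractions, or called in neither, were not computed.

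**Figure D4:**
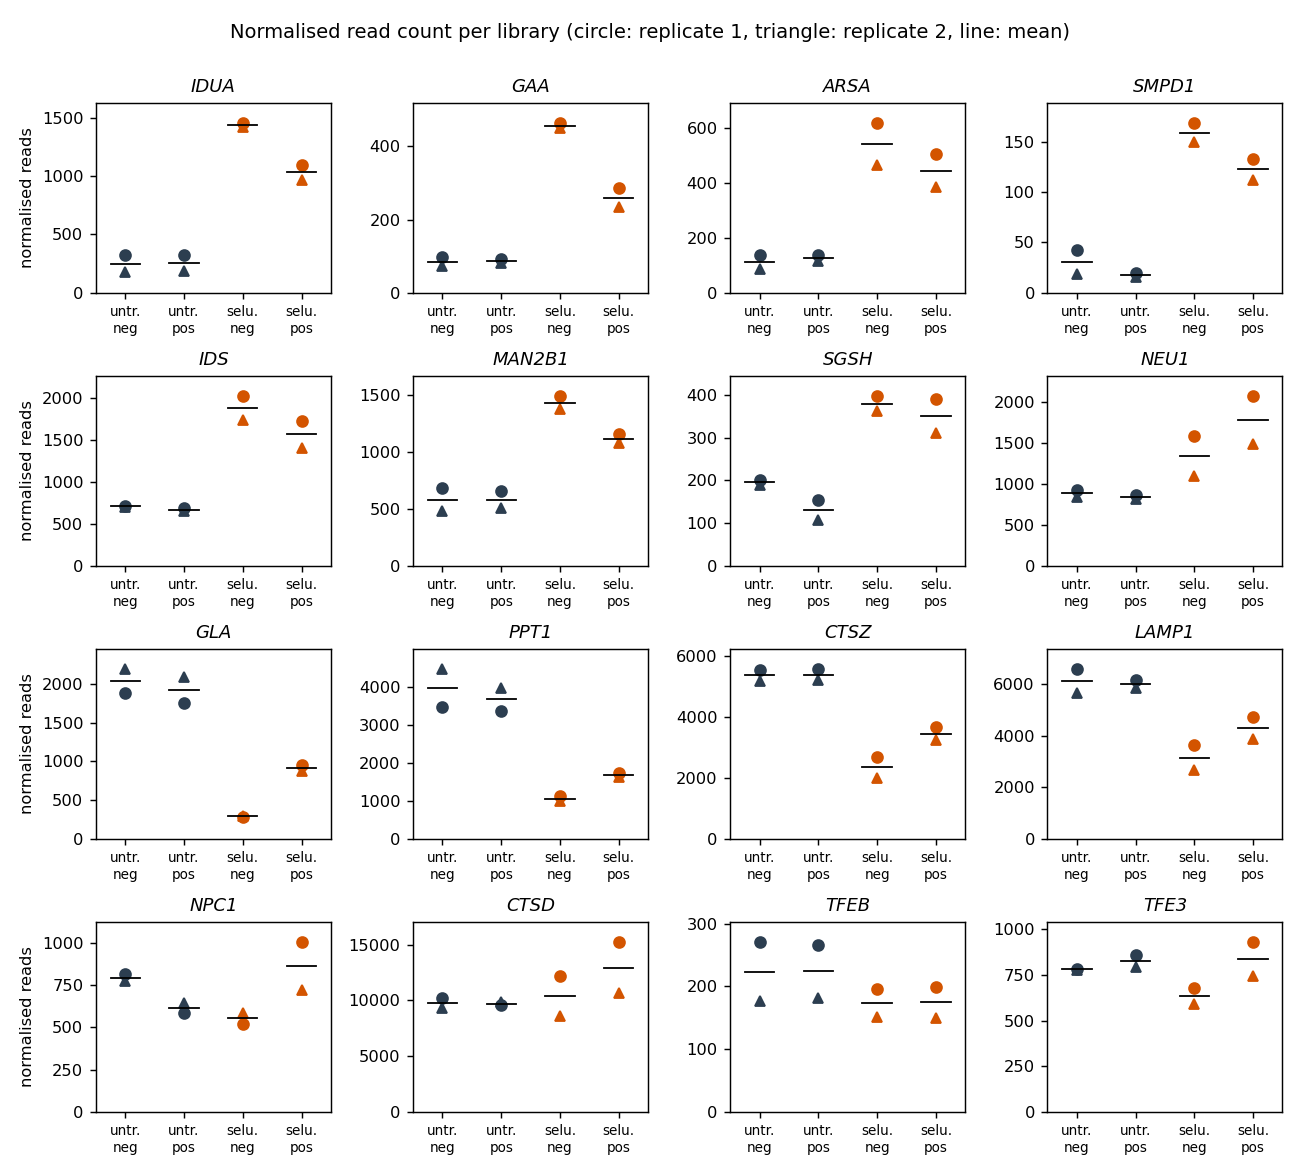
Normalised reads (y axis, from 0) of 16 members in each of the 8 libraries, with 1 panel per gene, untreated libraries in dark blue and selumetinib-treated ones in orange, and the mean of each pair as a line. IDUA, GAA, ARSA, SMPD1, IDS, MAN2B1, SGSH and NEU1 lie higher in treated libraries, GLA, PPT1, CTSZ and LAMP1 lie lower, and the libraries of TFEB overlap.

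How many members were called in each direction depended on the scaling, and treated libraries hold more mitochondrial and MALAT1 reads. The median log2 fold change of all genes in CCNB1-negative and CCNB1-positive cells was -0.21 and -0.18 with median-ratio scaling, -0.07 and -0.08 with quantile normalisation, 0.20 and 0.28 with limma-voom, and 0.36 and 0.42 when libraries were scaled to nuclear genes without MALAT1. In CCNB1-negative cells 8 members were higher and 16 lower with median-ratio scaling, and 15 higher and 6 lower with scaling to nuclear genes. The counts in CCNB1-positive cells came to 9 higher and 7 lower with the former, and 19 higher and 2 lower with the latter. Calls over all 14219 tested genes moved too. In CCNB1-negative cells 4580 were higher and 6103 lower with median-ratio scaling, and 6588 and 3854 with scaling to nuclear genes. In CCNB1-positive cells 3923 were higher and 5663 lower with the former, and 6676 and 2614 with the latter. Relative to the median of all genes, the sulfatases stood 0.91 higher and the proteases 0.67 lower in CCNB1-negative cells on the deposited scale. With quantile normalisation the proteases stood 0.25 lower, and CTSD was called higher there at 0.64. GAA, IDUA, MAN2B1, NAGLU, IDS, SGSH, ARSA and SMPD1 were called higher, and GLA, CTSB, CTSL, CTSZ, PPT1 and LAMP1 lower, in CCNB1-negative cells under each refit that tested them, of 19 that changed the scaling, the low-value handling, the model or the libraries. For GAA, ARSA, SMPD1 and CTSL these were 18, since the filter of 10 RPM leaves them out. In CCNB1-positive cells that held for GAA, IDUA, MAN2B1, NEU1, IDS, SGSH, ARSA, SMPD1 and NPC2 and for GLA and PPT1, with 18 refits for GAA, ARSA and SMPD1. The remaining calls, NEU1, GALNS, GUSB, CTSH, LAMP2, CD63 and NPC1 in CCNB1-negative cells and NAGLU, SCARB2, NPC1, CTSZ and LAMP1 in CCNB1-positive cells, were lost in at least 1 refit, and the sign of CD63 changed with quantile normalisation.

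The members that rose in both fractions had GC-rich transcripts, with a median GC content of 60.9% (43.3 to 67.4%, 9 genes), compared with 51.9% in the 4 that fell in both, 53.4% over all tested members and 48.2% over all tested genes. Over 5 equal groups of all genes by GC content, the median response lay between -0.01 and 0.16 in CCNB1-negative and between 0.12 and 0.22 in CCNB1-positive cells. With the response corrected for GC content, 10 members were higher and 10 lower in CCNB1-negative cells, and 9 and 6 in CCNB1-positive cells. Over all genes the correction gave 5579 higher and 5084 lower in CCNB1-negative cells, against 5438 and 5092 without it. In CCNB1-positive cells it gave 4955 and 4591, against 5400 and 3888. The part of GC content in the members' responses was not tested further.

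Several members overlap a gene on the opposite strand, and the strand setting of the authors' counting is not given in the sources used here, so their reads may not be separable. IDUA overlaps SLC26A1, a gene with 49 to 88 reads per library. SGSH overlaps SLC26A11, which had 16 to 155 reads and log2 fold changes of 3.14 and 2.53 in CCNB1-negative and CCNB1-positive cells, the same direction as SGSH. PPT1 overlaps CAP1, at -1.18 and -0.54, and GLA lies opposite the RPL36A-HNRNPH2 readthrough gene, at -0.60 and -0.29. For GALNS, NPC1, NPC2, SCARB2 and CTSA, overlaps with TRAPPC2L, RMC1, ISCA2, FAM47E and NEURL2 leave the same doubt. Some members overlap an annotated gene on the same strand, which no strand setting separates. Among them are IDS, MAN2B1 and NAGLU, as well as GLB1 with TMPPE and MCOLN1 with PNPLA6. The part of such overlaps in the results was not tested.

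E-boxes stood in front of members that rose, members that fell and members that were not called. Of the 8 tested members with CACGTG in the window, 3 rose (GAA, NEU1 and GALNS), 1 fell (LAMP1) and 4 were not called in CCNB1-negative cells, with a median log2 fold change of 0.12. Of the 19 with a window that held none, 4 rose, 8 fell and 7 were not called, with a median of -0.30. In CCNB1-positive cells 2 of 8 rose and 1 fell, against 7 and 3 of 19. As described beside the sequences, LAMP1 has the most E-boxes and fell, and IDUA has none in its window and rose. The members with and without the motif were not tested against each other.

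The second question was whether the fractions differ among themselves. In untreated cells no member was called between CCNB1-positive and CCNB1-negative cells by limma, where 2.87% of all tested genes were called, and 1 of 36, SGSH, had an unadjusted p under 0.05. SGSH had 202 and 189 normalised reads in CCNB1-negative and 154 and 107 in CCNB1-positive cells, without overlap, a log2 difference of -0.60 with an adjusted p of 0.21. The members' differences ranged from -0.69 for SMPD1 to 0.26 for MCOLN1, with a median of -0.08 against -0.06 over all genes.

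Under selumetinib 7 members were called higher in CCNB1-positive than in CCNB1-negative cells and 1 lower, which is 19.4% and 2.78% of the members, compared with 13.8% of all tested genes called higher and 7.87% called lower. GLA had 284 and 297 normalised reads in treated CCNB1-negative and 949 and 882 in treated CCNB1-positive libraries, a log2 difference of 1.66 ± 0.15 (adjusted p = 2.78e-06). The cysteine proteases CTSL, CTSB and CTSZ were higher by 0.82, 0.72 and 0.57, PPT1 by 0.68, NPC1 by 0.62 and GUSB by 0.41 (adjusted p = 0.0498). GAA was lower in CCNB1-positive cells by 0.82 on the log2 scale, with 286 and 233 normalised reads against 463 and 451 and no overlap (adjusted p = 0.022). Only GLA kept its call under all alternatives. When single treated libraries were left out, the count over all tested genes moved in the same direction as that of the members. The count of 8 fell to 1 without treated CCNB1-positive replicate 1, to 2 without treated CCNB1-negative replicate 2 and to 4 without treated CCNB1-positive replicate 2, and rose to 11 without treated CCNB1-negative replicate 1.

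The responses of the fractions were then compared directly by the interaction, the response of CCNB1-positive cells minus that of CCNB1-negative cells. It was above 0 for 26 of 36 members (72.2%) and for 59.2% of all tested genes, and its median was 0.27 over the members and 0.11 over all genes, the latter falling to -0.03 with quantile normalisation and -0.02 with the GC correction. It was called for 2 members, both above 0, which is 5.56% compared with 4.99% of all tested genes called above 0. GLA fell less in CCNB1-positive cells, by 1.74 ± 0.22 on the log2 scale (adjusted p = 0.00013). NPC1 (ENSG00000141458, chr18:23506184-23586506) had 814 and 777 normalised reads in untreated and 519 and 587 in treated CCNB1-negative libraries, and 585 and 645 in untreated and 1004 and 721 in treated CCNB1-positive libraries. It was thus lower with treatment in one fraction and higher in the other, without overlap in either, and its interaction was 1.00 ± 0.25 (adjusted p = 0.032). NPC1 lost the call without treated CCNB1-positive replicate 1, at 0.76 with an adjusted p of 0.18, and without any of the 4 untreated libraries, with adjusted p from 0.056 to 0.12. The next members, GUSB, CTSB and PPT1, had interactions of 0.68, 0.72 and 0.78 with adjusted p of 0.062, 0.065 and 0.065 and were not called. GAA had the lowest, -0.87 (adjusted p = 0.15). CTSL, CTSH, LAMP2 and CD63, which were called in CCNB1-negative cells alone, had interactions with adjusted p of 0.26, 0.26, 0.24 and 0.34 and were not called either. These calls depend on whether the fractions are treated as paired, which the labels do not say: with a block of treatment and replicate number, 14 members were called in limma, among them PPT1, GUSB, CTSB, LAMP2, CTSH and CD63 (adjusted p = 0.00033, 0.00094, 0.0007, 0.0069, 0.018 and 0.031) and, below 0, GAA and IDUA, but not CTSL (adjusted p = 0.07). The rise was not particular to the members: of all 14219 tested genes this block called 2739 above 0 and 1111 below, against 709 and 49 without it.

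**Figure D5:**
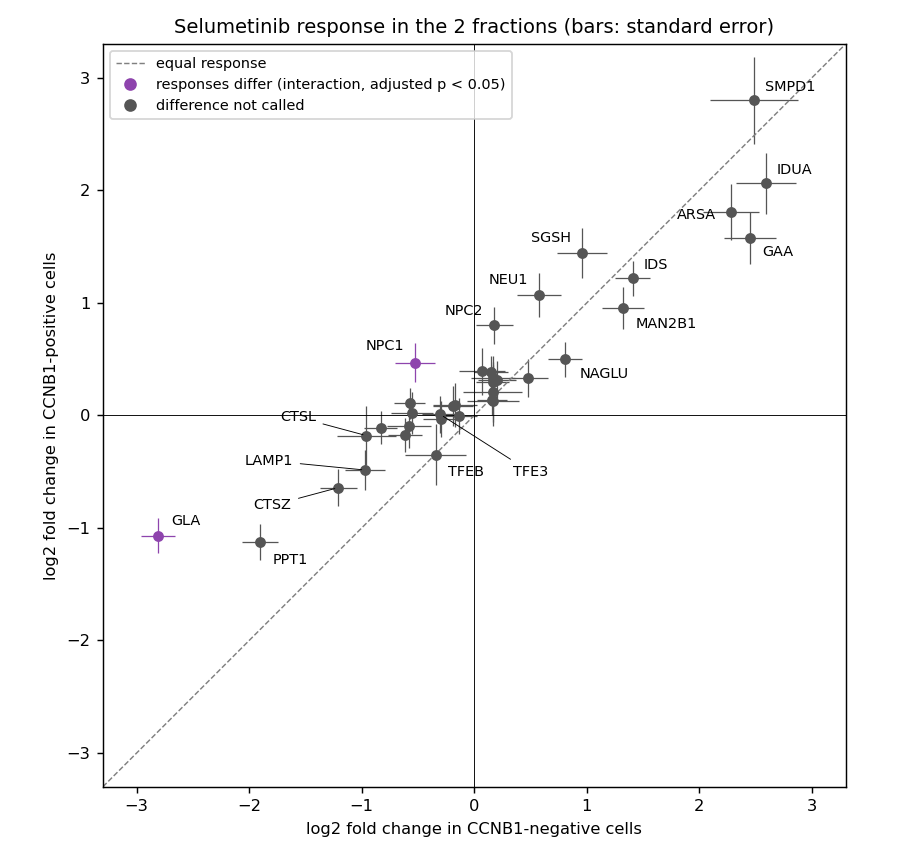
Log2 fold change under selumetinib in CCNB1-negative cells (x axis) and CCNB1-positive cells (y axis) of the 36 tested members, with standard errors as bars and the line of equal response dashed. GLA and NPC1, in purple, are the members whose responses differed between fractions (interactions of 1.74 and 1.00). The 11 members called lower in CCNB1-negative cells lie above the dashed line, a place that their selection by this response favours. Of all tested genes 59.2% lie above it.

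Other genes of the lysosome, from lists of V-ATPase genes, luminal proteins, membrane proteins, enzyme delivery and MiT/TFE signalling, place the members among their neighbours. Of 18 further V-ATPase genes tested, 2 rose and 10 fell in CCNB1-negative cells and 2 rose and 8 fell in CCNB1-positive cells. ATP6V1B1, a subunit isoform known from kidney and inner ear, rose by 4.42 and 4.23 on the log2 scale, while ATP6V0B of the membrane sector had log2 fold changes of -1.35 and -0.79. ATP6AP2 had -1.16 in CCNB1-negative cells, and ATP6V0A2 had -0.72 in CCNB1-positive cells. The V-ATPase list stood 0.67 below the median of all genes in CCNB1-negative and 0.55 below it in CCNB1-positive cells, although with scaling to nuclear genes its calls in CCNB1-positive cells were 2 higher and 2 lower.

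Of 26 further luminal proteins, 11 rose and 7 fell in CCNB1-negative cells and 9 rose and 3 fell in CCNB1-positive cells, which with median-ratio scaling became 7 and 10, and 5 and 7. The largest changes were rises of the cysteine proteases CTSS (2.80 and 3.19), CTSK (2.68 and 2.31) and CTSO (2.03 and 1.83), whereas the cysteine proteases among the members fell or were not called. CTSO lost its call in CCNB1-positive cells in 1 of 5 scalings. Of 20 further membrane proteins, 9 rose and 5 fell, and then 7 and 2, which with scaling to nuclear genes became 12 and 2, and 11 and 2, and in CCNB1-positive cells with median-ratio scaling 6 and 5. SIDT2 (1.59 and 1.18) and OSTM1 (1.59 and 1.14) rose most in both fractions, with TPCN1, an ion channel, at 1.53 in CCNB1-negative and GLMP at 1.06 in CCNB1-positive cells.

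Of 18 genes for the delivery of lysosomal enzymes, 6 rose and 7 fell in CCNB1-negative cells and 1 rose and 6 fell in CCNB1-positive cells, and with scaling to nuclear genes 9 rose and 6 fell, and 9 and 5. M6PR, the smaller mannose 6-phosphate receptor, had log2 fold changes of -2.10 and -1.70, and the adaptor subunits AP1S1 and AP1M1, which sort it into vesicles, had -1.68 and -1.20 in CCNB1-negative and -1.10 and -1.11 in CCNB1-positive cells. Of 20 genes of MiT/TFE regulation and mTORC1 at the lysosome, 8 rose and 5 fell, and then 8 and 3, which with median-ratio scaling became 8 and 8, and 4 and 9. FLCN and its partner FNIP1, which act on the Rag GTPases that recruit TFEB and TFE3 to the lysosome, rose by 1.33 and 1.85 in CCNB1-negative and by 1.10 and 1.5 in CCNB1-positive cells. TSC2, an inhibitor of mTORC1 signalling, rose by 1.37 in CCNB1-negative cells and its partner TSC1 by 0.87 in CCNB1-positive cells. In untreated cells none of these 5 lists held a gene called between the fractions by limma. The interaction was called for 2 of the 26 luminal proteins, of which CTSV, a cysteine protease, had 2.12 on the log2 scale and the other is not reported here.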

How the data were processed

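Poly(A) mRNA-seq of 8 HT29 libraries was analysed from 1 deposited table. According to the methods and the submitters' processing notes, the authors used Trim Galore 0.5.0 for trimming, HISAT2 2.1.0 for alignment to GRCh38, SeqMonk for gene quantification and DESeq2 for testing, and they deposited log2 values of reads scaled to the largest library; the annotation release is not given in the sources used here. Genes without a read stand at 0.9 reads. Whole reads were recovered for 100% of values with reads (tolerance 0.001), and 0 value columns were left unmapped.

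The 37 members and all gene lists were chosen with earlier results of these data known. Genes whose mean reached 1 RPM were fitted with limma 3.58.1 (R 4.3.3), with a mean-variance trend and 1 coefficient per group, and p-values were adjusted by the Benjamini-Hochberg method over all 14219 genes. Nothing in the labels says that the 2 libraries of a group came from separate cultures, so p-values measure the spread between these libraries, which may be technical, and read numbers cover counting error only. Values per library are given for members called in a response with an absolute log2 fold change of at least 1 or in the interaction, for TFEB, TFE3 and CTSF, and LAMP1 and SGSH were added after their values were seen. From each further list at most the 3 called genes with the largest change per response are named, and CTSV was named after its values were seen. Alternatives were p and fold thresholds, filters, pseudocounts, scalings, limma-voom on the recovered reads, a replicate block, a block of treatment and number, a fit of only the groups compared, leaving out each library, and, chosen after seeing the data, a GC correction. The fit was tested on simulated data. Transcript lengths came from GENCODE 44, which held 99.3% of the gene identifiers. Other steps used Python 3.11.15, pandas 2.3.3, numpy 2.4.6, scipy 1.17.1 and matplotlib 3.10.9. The growth medium in the labels is not the one in the methods.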

Additional observations from a re-analysis of the deposited data

Results flagged for a closer look

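For 2 members the selumetinib responses of the fractions differed by the interaction term in limma. GLA fell in both fractions, less in CCNB1-positive cells, and its interaction was 1.74 on the log2 scale (adjusted p = 0.00013), called under all alternatives and between 1.61 and 1.87 when each library was left out in turn. NPC1 had an interaction of 1.00 on the log2 scale (adjusted p = 0.032), which was not called without a filter on low values (adjusted p = 0.078) or with quantile normalisation (0.90, adjusted p = 0.055), nor with median-ratio scaling (0.91, adjusted p = 0.056) or scaling to nuclear genes (0.93, adjusted p = 0.060).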

How the results depend on the processing

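With 2 libraries per group, depth and the spread between libraries can limit the calls. SMPD1 had 14 reads in its lowest library and CTSL 37. SMPD1 nevertheless kept its call in both responses under all alternatives. CTSL kept its call in CCNB1-negative cells under each refit that tested it. CD63, with at least 5635 reads in every library, lost its call there under some alternatives. What made calls change was not tested. Leaving out each library in turn gave 17 to 21 called members in the response of CCNB1-negative cells (8 to 10 higher, 9 to 13 lower), 12 to 16 in that of CCNB1-positive cells (9 to 12 higher, 3 to 4 lower), 0 between untreated fractions, 1 to 11 between treated fractions (1 to 11 higher, 0 to 1 lower) and 1 to 7 in the interaction (1 to 7 above 0). The 7 were called without treated CCNB1-negative replicate 1, and 1 was called without untreated CCNB1-negative replicate 2, without either untreated CCNB1-positive library or without treated CCNB1-positive replicate 1. Treated fractions differed in 8 members (7 higher, 1 lower) in the fit as reported. How many of all tested genes were called also changed with the library left out.

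At an adjusted p of 0.01 treated fractions differed in 3 members (3 higher, 0 lower) and the interaction in 1 (1 above 0). Over all tested genes this threshold left 1048 higher and 290 lower between treated fractions. It left 423 above 0 and 3 below in the interaction. With a 2-fold requirement 9 members were called in CCNB1-negative cells (6 higher, 3 lower), 9 (7 higher, 2 lower) in the CCNB1-positive fraction, 1 between treated fractions (1 higher, 0 lower) and 1 in the interaction (1 above 0). Over all tested genes it left 3776 higher and 2982 lower in CCNB1-negative cells, and 3473 and 1401 in CCNB1-positive cells. Between treated fractions it left 700 higher and 208 lower, and in the interaction 584 above 0 and 37 below. Without a filter, with 31381 genes in the fit, treated fractions differed in 5 members (4 higher) and the interaction in 1 (1 above 0). Over all genes of that fit 1462 were higher and 864 lower between treated fractions, and 484 were above 0 and 12 below in the interaction. With a filter of 10 RPM, which removes GAA from the test, 0 members were lower between treated fractions. Quantile normalisation gave 2 lower members between treated fractions and 1 below 0 in the interaction, and it turned CD63 from lower to 0.092 in CCNB1-negative cells and to 0.53, called higher (adjusted p = 0.032), in CCNB1-positive cells. Median-ratio scaling gave 7 lower members in CCNB1-positive cells and 1 interaction (1 above 0). Scaling to nuclear genes without MALAT1 gave 6 lower members in CCNB1-negative cells, 19 higher and 2 lower ones in the CCNB1-positive fraction, and 1 interaction (1 above 0). The GC correction gave 4 lower members between treated fractions. The causes of these changes were not tested. Over all tested genes 2240 were lower between treated fractions with quantile normalisation and 1979 with the GC correction, against 1119 in the fit as reported. Response calls over all tested genes also moved with median-ratio scaling and with scaling to nuclear genes, as given above.

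With the replicate number as a block, 4 members were called in the interaction (4 above 0) in place of 2, and no other count changed by more than 1.5 times. The labels do not say what a number shares. Deviations of same-numbered libraries correlated at 0.35 between untreated fractions and 0.43 between treated fractions, and between -0.09 and 0.08 across treatments, so fractions of the same treatment and number deviated together, but with 2 numbers per treatment this is a hint from the data and not from the design. With a block of treatment and number, 1 member was called between untreated fractions (1 lower), 20 between treated fractions (15 higher, 5 lower) and 14 in the interaction (12 above 0, 2 below). Of all 14219 tested genes this block called 675 higher and 1248 lower between untreated fractions. Between treated fractions it called 3845 higher and 2826 lower, against 1958 and 1119 without it.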
